A study of Mus musculus with 84 samples.

Results

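Liver RNA of mice from experimental blocks 1, 3 and 4 was compared by block. Each mouse of the liver study carried a block label, and every mouse whose RNA had been isolated at Expression Analysis Genomic Services (EA) was taken, 77 mice of 84 in all. Block 1 held 23 of these mice, block 3 held 33 and block 4 held 21. All were male B6C3F1 mice, labelled as 8 weeks old, that had eaten a diet for 7 days. The diet was a control diet or contained an organophosphate pesticide (OPP), a class of pesticides that inhibit acetylcholinesterase. Fenthion (FT) was given at 2.5, 5, 10 or 20 ppm, methidathion (MT) at 10, 25, 50 or 100 ppm and parathion (PT) at 20, 40 or 80 ppm. Every block held all 12 treatment groups, in most groups with 2 mice of block 1, 3 of block 3 and 2 of block 4. Controls and the groups fed FT 20 ppm or MT 100 ppm held 2, 2 and 1 such mice, and the MT 10 ppm group held 1, 3 and 2. A block difference could therefore be taken within treatment groups, with the group as a covariate. What set the blocks apart is not given in the sources used here, nor is the hour of tissue collection or the cage of each mouse, and mice were housed 4 to a cage.

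Gene expression had been measured by TempO-Seq, in which pairs of detector oligos bind an mRNA side by side, are ligated and are then sequenced. A level is given in CPM, the count of a gene per fixed total of counts in its scaled library, on a scale shared by all 84 mice. Since each probe pair has its own yield, levels are compared between mice for 1 gene and never between genes. Total counts ran from 6950381 to 15300589 in block 1 (median 12775981), from 8621611 to 13200473 in block 3 (median 11357804) and from 9273235 to 13479545 in block 4 (median 11556102). The mean total was higher in block 1, at 12385968, than in block 3, at 11273565 (two-sided permutation test, p = 0.0046), and than in block 4, at 11409408 (p = 0.03702), while blocks 4 and 3 gave p = 0.6649. Counts were scaled for depth and composition before any comparison. The 12 hepatocyte markers measured, with albumin among them, summed to between 47030 and 67660 CPM in block 1, 42440 and 61640 in block 3 and 46730 and 67490 in block 4, and none was at 0 in all mice. Sums of markers, unlike the levels of single genes, were scaled by total counts alone.

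Block 1 stood apart from blocks 3 and 4, which differed little from each other. Of 10362 genes with a median count above 8, 3948 (38.1%) differed between blocks at an adjusted p under 0.05 in edgeR's quasi-likelihood test, with 19.3% (2002 genes) higher and 19.5% (2020 genes) lower in block 3 than in block 1. In block 4, 17.5% (1816 genes) were higher and 17.6% (1819 genes) lower than in block 1. Most differences were small: 71 genes (0.685%) also differed at least 2-fold between blocks 3 and 1, and 83 (0.801%) between blocks 4 and 1. Between blocks 4 and 3, by contrast, 6 genes (0.0579%) were higher and 3 (0.029%) lower in block 4, with 731 genes at an unadjusted p under 0.05. The same mice gave 1955 genes (18.9%) that differed between the 12 treatment groups. With counts scaled by the total alone, the median of all genes shifted by -0.07 on the log2 scale in block 3 and by -0.05 in block 4, and the split became 1112 higher and 3130 lower in block 3 and 1267 higher and 2347 lower in block 4. Both comparisons rest on the same 23 mice of block 1, so they are given side by side and are not independent of each other. No gene (0%) separated all mice of block 1 from all mice of blocks 3 and 4, while 296 genes (2.86%) differed from block 1 in 1 direction in all 12 treatment groups for both blocks.

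Genes of the circadian clock were among those with the largest differences. In the liver, as in most tissues, the transcription factors BMAL1 and CLOCK (or NPAS2) bind E-boxes and switch on the Per, Cry, Nr1d1 and Dbp genes. PER and CRY proteins then repress BMAL1 and CLOCK, and NR1D1 (REV-ERB alpha) represses Bmal1 itself through RORE sites that the activator RORA also binds. DBP, TEF and HLF activate genes through D-boxes, to which NFIL3 binds as a repressor, and this circuit times much of the liver's metabolism over the day. Over a day Bmal1 and Npas2 mRNA peak close to the trough of Dbp mRNA. Below, a pair of values for a gene is its log2 fold change in block 3 and in block 4 against block 1, in that order, and a gene rose, fell or passed where edgeR's adjusted p was under 0.05.

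The promoters of 4 clock genes with small p-values for block are shown, to print the letters of the sites that the circuit is known for where these windows hold them. Sequences are from RefSeq (GRCm38.p6) and run from 250 bases before to 50 bases after the start of the transcript, with motif matches in capitals. The motifs searched on both strands were the E-box CACGTG, the D-boxes TTATGTAA and TTACGTAA, and AGGTCA, the core of the RORE. The promoter of Per3 lies at chr4:151044616-151044915 on the minus strand, that of Nfil3 at chr13:52980990-52981289 on the minus strand, the first of 2 of Tef at chr15:81802423-81802722 on the plus strand and that of Dbp at chr7:45704997-45705296 on the plus strand.
Per3: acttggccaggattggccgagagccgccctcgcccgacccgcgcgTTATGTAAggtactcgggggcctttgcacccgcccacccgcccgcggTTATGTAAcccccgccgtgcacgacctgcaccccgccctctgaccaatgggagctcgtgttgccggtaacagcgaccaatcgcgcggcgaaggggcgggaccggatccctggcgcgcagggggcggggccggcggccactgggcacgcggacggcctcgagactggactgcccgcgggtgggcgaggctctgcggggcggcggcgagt
Nfil3: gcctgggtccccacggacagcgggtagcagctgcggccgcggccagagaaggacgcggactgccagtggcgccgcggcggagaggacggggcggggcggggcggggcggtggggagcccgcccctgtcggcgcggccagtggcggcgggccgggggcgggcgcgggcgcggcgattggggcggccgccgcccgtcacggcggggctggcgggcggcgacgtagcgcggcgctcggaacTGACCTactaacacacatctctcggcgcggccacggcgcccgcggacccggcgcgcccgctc
Tef: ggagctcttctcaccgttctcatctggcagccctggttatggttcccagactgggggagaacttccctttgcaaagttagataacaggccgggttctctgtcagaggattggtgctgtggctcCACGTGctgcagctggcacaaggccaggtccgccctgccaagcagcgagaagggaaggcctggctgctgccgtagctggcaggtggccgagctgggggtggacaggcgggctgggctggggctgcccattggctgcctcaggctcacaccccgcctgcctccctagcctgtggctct
Dbp: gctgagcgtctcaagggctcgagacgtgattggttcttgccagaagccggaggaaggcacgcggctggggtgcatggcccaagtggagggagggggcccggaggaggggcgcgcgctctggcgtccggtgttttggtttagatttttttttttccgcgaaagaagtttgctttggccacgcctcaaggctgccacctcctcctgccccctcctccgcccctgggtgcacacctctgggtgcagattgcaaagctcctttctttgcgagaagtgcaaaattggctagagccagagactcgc
The Per3 window held 2 D-boxes of the form TTATGTAA, the first bases of which lay 205 and 158 bases before the start. The Nfil3 window held 1 AGGTCA, read on the other strand as TGACCT, 12 bases before the start, and the Tef window 1 E-box, 127 bases before it. These windows of Dbp, and those of Hlf and Por, held none of the motifs. Among 32851 mouse promoters in the same table, 7.15% held the E-box, 1.06% a D-box and 16.3% the RORE core, so the last is common.

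The D-box activators were higher in block 1. Dbp, the PAR bZIP factor whose mRNA has one of the widest daily swings in liver, ranged from 46.4 to 824 CPM in block 1 (median 450.5), from 7.34 to 302 in block 3 (median 32.9) and from 8.66 to 564 in block 4 (median 27.6). The mice of block 1 were thus high and those of blocks 3 and 4 low, and 16 of the 23 mice of block 1 lay above the highest mouse of block 3, although the ranges overlapped. In edgeR the log2 fold change against block 1 was -3.12 in block 3 (SE 0.36, adjusted p = 2.82e-10) and -3.40 in block 4 (SE 0.44, adjusted p = 8.04e-09), and Dbp was lower in 12 of 12 treatment groups in block 3 and in 11 of 12 in block 4. Its relative Tef ranged from 1.96 to 7.84 CPM in block 1 (median 3.96), from 0.0956 to 3.9 in block 3 (median 1.04) and from 0.0895 to 5.38 in block 4 (median 1.02). Tef was low in blocks 3 and 4 in all 12 treatment groups, with a log2 fold change of -1.69 in block 3 (SE 0.20, adjusted p = 5.41e-10) and -1.79 in block 4 (SE 0.23, adjusted p = 7.85e-09). Hlf, the third member of the family, ranged from 1.57 to 16.6 CPM in block 1 (median 4.04), from 0.694 to 3.43 in block 3 (median 1.44) and from 0.532 to 4.55 in block 4 (median 1.36). Again block 1 was high, with 16 mice above the highest of block 3, and the log2 fold change was -1.47 in block 3 (SE 0.14, adjusted p = 1.6e-13) and -1.59 in block 4 (SE 0.16, adjusted p = 2.47e-12).

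**Figure D1:**
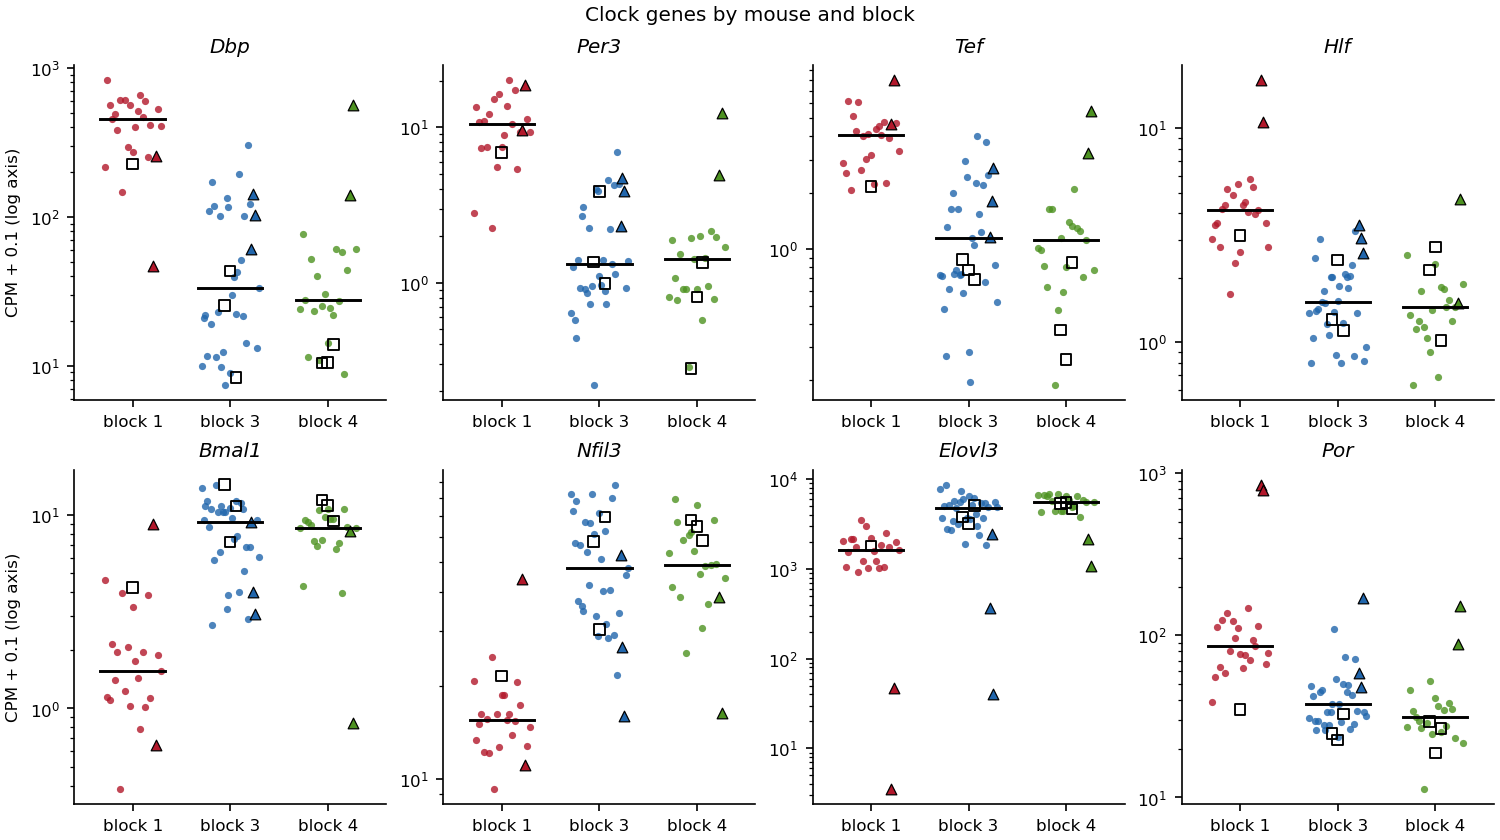
Levels of 8 clock genes in each mouse by block, as CPM + 0.1 on a log axis; filled circles are mice isolated at EA, filled triangles the EA mice of the PT 80 ppm group, open squares the 7 mice isolated at the EPA and black lines the medians of the EA mice. Dbp, Per3, Tef, Hlf and Por sit high in block 1 (Dbp median 450.5 CPM against 32.9 and 27.6), and Bmal1, Nfil3 and Elovl3 sit low.

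The negative limb of the loop was also higher in block 1. Per3, a period gene, ranged from 2.16 to 19.9 CPM in block 1 (median 10.4), from 0.12 to 6.87 in block 3 (median 1.21) and from 0.188 to 12.3 in block 4 (median 1.31). In block 1, 19 of 23 mice lay above the highest mouse of block 3, and 7 above the highest of block 4. Its log2 fold change was -2.57 in block 3 (SE 0.24, adjusted p = 3.2e-13) and -2.77 in block 4 (SE 0.28, adjusted p = 1.52e-11), with the same direction in all 12 treatment groups in both comparisons. The cryptochrome Cry2, a repressor of BMAL1 and CLOCK, ranged from 16.4 to 29.7 CPM in block 1 (median 22.1), from 6.71 to 20.2 in block 3 (median 14.1) and from 8.19 to 21.4 in block 4 (median 12.2), and fell by 0.68 and 0.73 on the log2 scale. Bhlhe41 (DEC2), which competes for E-boxes, ranged from 1.8 to 12.6 CPM in block 1 (median 6.52), from 0.181 to 6.12 in block 3 (median 1.18) and from 0 to 16.6 in block 4 (median 1.23). In block 1, 14 of 23 mice lay above the highest of block 3, for a log2 fold change of -1.98 in block 3 (SE 0.31, adjusted p = 4.85e-07) and -2.20 in block 4 (SE 0.37, adjusted p = 2.68e-06). Bhlhe40 (DEC1) fell by 0.51 and 0.63 and Nr1d1, the repressor of Bmal1, by 0.69 and 0.60, of which the second value did not pass in 5 of 24 alternatives. Cry1, the cryptochrome that peaks later than the other genes of this limb, went the other way and was higher in blocks 3 and 4, at 0.69 in block 3 (SE 0.18, adjusted p = 0.00157) and 0.76 in block 4 (SE 0.19, adjusted p = 0.00151).

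The positive limb and the D-box repressor were lower in block 1. Bmal1 ranged from 0.284 to 8.83 CPM in block 1 (median 1.46), from 2.59 to 14.1 in block 3 (median 9.07) and from 0.744 to 10.6 in block 4 (median 8.44). In block 1, 18 of 23 mice lay below the lowest mouse of block 3. The ranges of blocks 3 and 4 overlapped widely, with 1 low mouse of block 4 at 0.744 CPM. The log2 fold change of Bmal1 was 1.98 in block 3 (SE 0.24, adjusted p = 1.12e-09) and 1.93 in block 4 (SE 0.25, adjusted p = 1.32e-08), positive in all 12 treatment groups in both comparisons. Nfil3, the repressor at D-boxes, ranged from 9.21 to 44 CPM in block 1 (median 15.4), from 15.8 to 88.2 in block 3 (median 47.6) and from 16.2 to 79.3 in block 4 (median 48.8). It was low in block 1, with 16 of 23 mice below the lowest of block 4, and its log2 fold change of 1.53 in block 3 (SE 0.16, adjusted p = 1.37e-11) and 1.52 in block 4 (SE 0.17, adjusted p = 2.81e-10) again held in 12 of 12 groups. Clock itself moved less, by 0.37 in block 3 (SE 0.07, adjusted p = 1.2e-05) and 0.38 in block 4 (SE 0.08, adjusted p = 5.23e-05). Rora, an activator at ROREs, did not pass, with log2 fold changes of -0.11 and -0.08.

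In all, 4 of 11 core clock genes tested were higher and 5 lower than in block 1, in block 3 and in block 4 alike. Of 18 clock outputs tested, 3 were higher and 14 lower in each block, and their median log2 fold change was -0.91 in block 3 and -0.93 in block 4, against 0.001 and -0.001 over all genes tested, of which 19.3% and 17.5% were higher and 19.5% and 17.6% lower. Core clock genes that stayed under the count filter were fitted without it. Npas2, the partner of BMAL1 in place of CLOCK, had median counts of 1 in block 1, 11 in block 3 and 12 in block 4, with log2 fold changes of 2.85 and 2.68. Ciart, a repressor of the loop, had median counts of 55, 3 and 6, with log2 fold changes of -3.98 and -3.22. Per1 had median counts of 2, 2 and 1, with edgeR log2 fold changes of -0.81 in block 3 (adjusted p = 0.0745) and -1.54 in block 4 (adjusted p = 0.0035). Per2 had at most 5 counts in any mouse, and was at -0.63 in block 3 (adjusted p = 0.282) and -1.90 in block 4 (adjusted p = 0.0038). Nr1d2 was not analysed here.

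**Figure D2:**
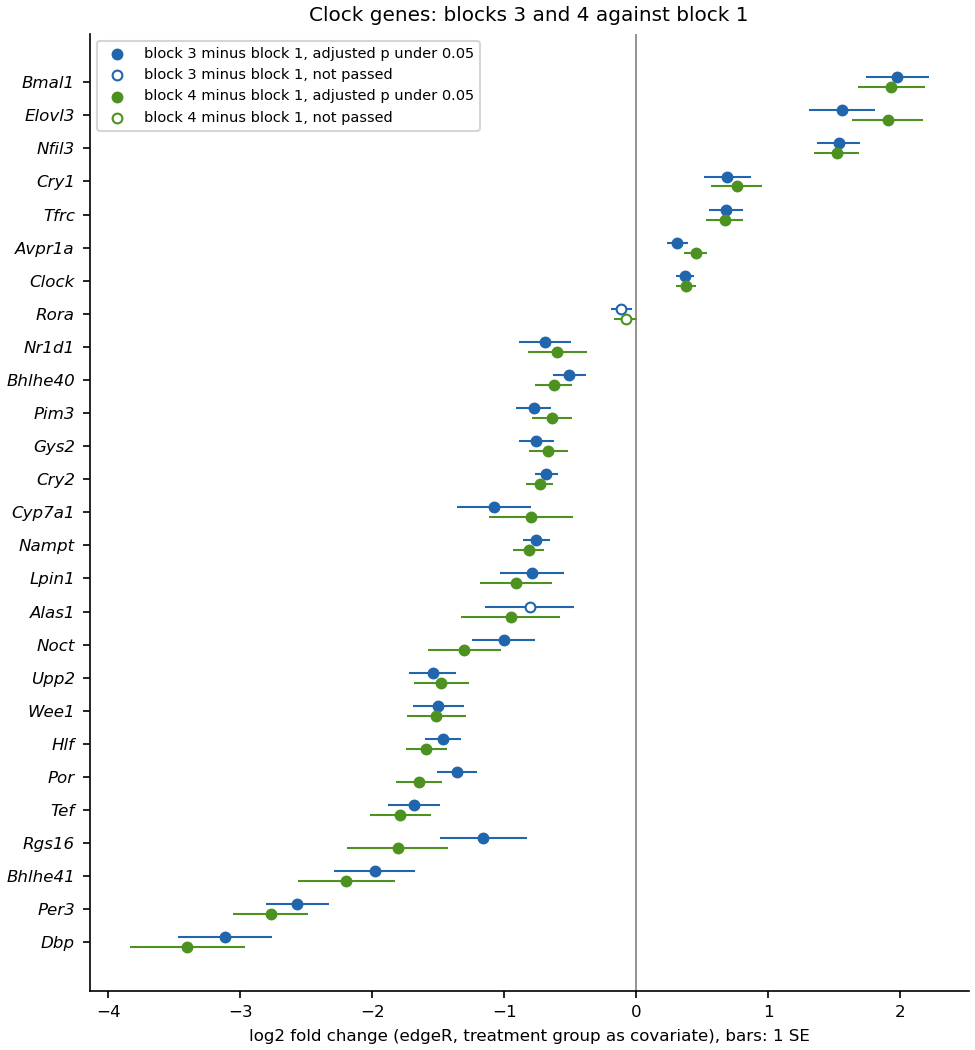
Log2 fold change of the clock genes reported here in block 3 (blue) and block 4 (green) against block 1, from edgeR with treatment group as a covariate; bars are 1 SE and open circles did not pass an adjusted p of 0.05. The genes run from Dbp, at -3.12 and -3.40, to Bmal1, at 1.98 and 1.93. For each gene the points of blocks 3 and 4 lie on 1 side of 0, often close together, but Rgs16 is at -1.16 and -1.81.

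Clock outputs tied to metabolism differed as well. Por, the electron donor of all microsomal cytochromes P450, ranged from 38.8 to 851 CPM in block 1 (median 86.2), from 23.5 to 170 in block 3 (median 37.4) and from 11.2 to 152 in block 4 (median 31.5). It was highest in the 2 mice of the PT 80 ppm group of block 1, at 785 and 851 CPM, and low in blocks 3 and 4, with a log2 fold change of -1.36 in block 3 (SE 0.15, adjusted p = 1.24e-10) and -1.65 in block 4 (SE 0.18, adjusted p = 5.62e-11) that ran from -1.74 to -1.16 in block 3 and from -1.93 to -1.5 in block 4 over the alternatives tried. Upp2, a uridine phosphorylase, ranged from 369 to 2862 CPM in block 1 (median 909), from 113 to 887 in block 3 (median 351) and from 163 to 1354 in block 4 (median 348), and fell by 1.54 and 1.48. Wee1, a kinase that holds back entry into mitosis, fell by 1.5 and 1.52, Nampt, which makes the NAD precursor, by 0.76 and 0.82, and Noct (nocturnin) by 1.01 and 1.30. Rgs16, a regulator of G protein signalling, fell by 1.16 and 1.81, Lpin1, a phosphatidate phosphatase, by 0.79 and 0.91, Gys2, the liver glycogen synthase, by 0.76 and 0.67, and the kinase gene Pim3 by 0.78 and 0.64. Cyp7a1, the rate-limiting enzyme of bile acid synthesis, ranged from 1.85 to 109.8 CPM in block 1 (median 13.1), from 1.33 to 58.9 in block 3 (median 6.89) and from 2.3 to 37.1 in block 4 (median 7.45). The blocks overlapped widely for Cyp7a1, with log2 fold changes of -1.08 in block 3 (SE 0.28, adjusted p = 0.00164) and -0.80 in block 4 (SE 0.32, adjusted p = 0.0424), and the second did not pass in 11 of 24 alternatives.

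Elovl3, an elongase of very long chain fatty acids with a strong daily rhythm in male liver, went the other way. It ranged from 3.44 to 3540 CPM in block 1 (median 1641), from 40.2 to 8693 in block 3 (median 4731) and from 1084 to 6812 in block 4 (median 5616). The lowest mouse of each block belonged to the PT 80 ppm group, and apart from that group blocks 3 and 4 lay mostly above block 1. Its log2 fold change was 1.56 in block 3 (SE 0.25, adjusted p = 1.01e-06) and 1.90 in block 4 (SE 0.27, adjusted p = 1.06e-07), positive in 12 of 12 treatment groups in both comparisons. Tfrc, the transferrin receptor, rose by 0.68 and 0.67 and Avpr1a, a vasopressin receptor, by 0.31 and 0.45. Alas1, the first enzyme of heme synthesis, had log2 fold changes of -0.81 in block 3 (SE 0.34, adjusted p = 0.0506) and -0.95 in block 4 (SE 0.38, adjusted p = 0.042) and passed in block 4 alone, where it did not pass in 9 of 24 alternatives, and the difference between the blocks was itself -0.15 (adjusted p = 0.986).

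**Figure D3:**
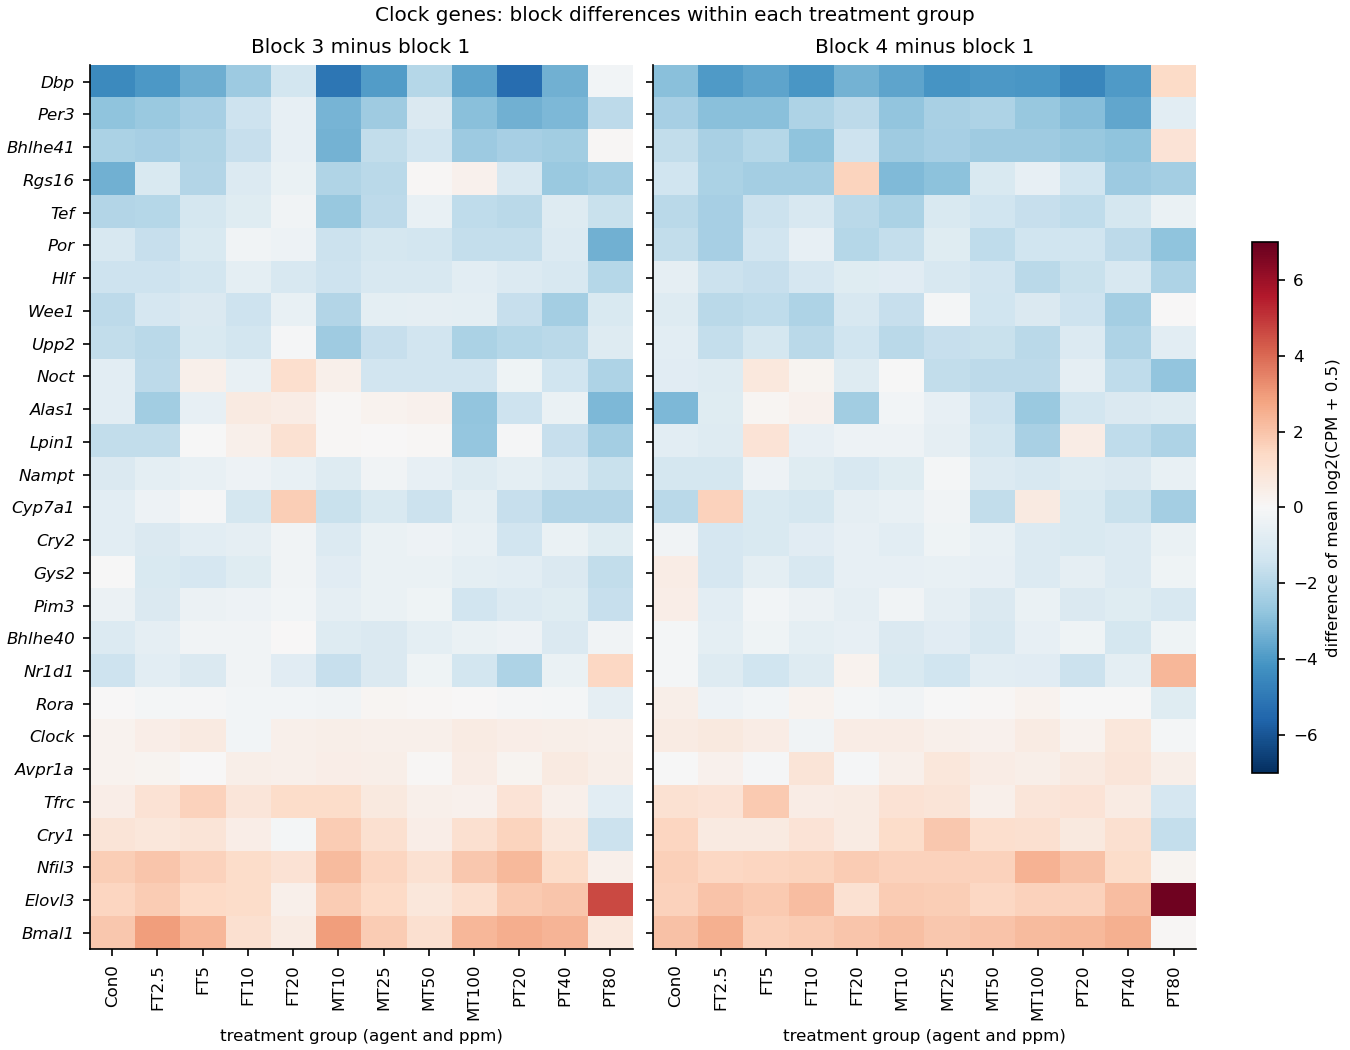
Difference of mean log2(CPM + 0.5) of the clock genes reported here between blocks within each of the 12 treatment groups, block 3 minus block 1 (left) and block 4 minus block 1 (right); red is higher and blue lower than in block 1. For Dbp the differences in block 3 run from -5.35 to -0.17 and in block 4 from -4.59 to 1.36, where the PT 80 ppm group is the single one in red.

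Some clock genes differed between treatment groups and others did not. Those given here are examples, and no count over the clock lists was made. Bmal1 had an adjusted p of 0.995 over the 12 treatment groups, Nfil3 one of 0.753 and Dbp one of 0.085. Por, on the other hand, differed between treatment groups at an adjusted p of 1.44e-10 and Hlf at 1.39e-05, and Per3 at 0.0287. A block difference that itself depended on the agent was looked for in all genes, and 0 genes passed edgeR's test of the interaction, with 693 at an unadjusted p under 0.05. That test pooled all doses of an agent, so a block difference tied to a single dose was not tested. Its controls held only 2, 2 and 1 mice of blocks 1, 3 and 4, so it does not show that block and diet acted apart.

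A pair of mice of the PT 80 ppm group lay with the other blocks in Dbp and Bmal1. Among those labelled block 1, 1 mouse had Dbp at 46.4 CPM and Bmal1 at 8.83 CPM, levels otherwise seen in blocks 3 and 4, and among those labelled block 4, 1 had Dbp at 564 CPM and Bmal1 at 0.744 CPM, levels otherwise seen in block 1. Other genes did not all follow Dbp and Bmal1. In Por and Fmo2 both PT 80 ppm mice labelled block 1 lay above every mouse labelled block 3 or 4. The labels cannot settle whether these 2 mice were exchanged between blocks, which was not tested, and they were kept in the blocks of their labels. The PT 80 ppm group was the single one in which Dbp was higher in block 4 than in block 1, by 1.36 on the log2 scale, against -2.93 or less in the other groups. Without these 2 mice, a choice made after their values were seen, 4079 genes differed between blocks, with 1982 higher and 1997 lower in block 3 and 1903 higher and 1879 lower in block 4 than in block 1.

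Within each block the mice with more Dbp had less Bmal1. Over log2 CPM, Pearson's r was -0.813 in block 1 (n = 23, permutation p = 6e-05), -0.836 in block 3 (n = 33, permutation p = 2e-05, the smallest that 100000 permutations can give) and -0.805 in block 4 (n = 21, permutation p = 0.0003). Spearman's rho was -0.743, -0.820 and -0.717, and the adjusted permutation p over the 3 blocks was 9e-05, 6e-05 and 0.0003 for r. Leaving out the 2 mice farthest from the median of Dbp gave r of -0.650, -0.800 and -0.694. With the mean of each treatment group removed r was -0.928, -0.793 and -0.693.

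Mice that the fits on EA mice did not use gave the same side for the clock genes that had passed in both comparisons. RNA of the other 7 mice had been isolated at the EPA, 1 of block 1 (MT 10 ppm) and 3 each of blocks 3 and 4 (control, FT 20 ppm and MT 100 ppm). Dbp was at 226 CPM in the mouse of block 1, from 8.18 to 43 in block 3 and from 10.3 to 13.8 in block 4, so that the mouse of block 1 lay above the other 6, while the range of block 4 fell within that of block 3. Bmal1 was at 4.13 CPM in block 1, from 7.14 to 14.2 in block 3 and from 9.19 to 11.8 in block 4. For 25 of 25 clock genes that had passed in both comparisons, the mouse of block 1 lay on the same side of the mean of the other 6 as in the EA mice, and for all 3005 genes that had passed in both with 1 sign it did so for 2616 (87.1%). With 1 mouse of block 1, no test was made. All 25 genes rest on that mouse, and none of the other 6 had its diet, so block and diet cannot be told apart here. For Clock itself the difference was 0.007 on the log2 scale. For Clock, Cry1, Avpr1a, Noct, Bhlhe40 and Cyp7a1 the mouse of block 1 lay within the range of the other 6. Between blocks 4 and 3 these mice gave 0 genes at an adjusted p under 0.05 in edgeR, with 400 at an unadjusted p under 0.05.

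Genes of feeding and fasting gave a mixed picture. The count of each list is to be read against the shares over all genes tested, of which 19.3% were higher and 19.5% lower in block 3 than in block 1, and 17.5% and 17.6% in block 4. Of 21 lipogenic genes tested, 13 were higher and 1 lower in block 3 than in block 1 (median log2 fold change 0.39), and 5 were higher and 0 lower in block 4 (0.17). Acly, which makes cytosolic acetyl-CoA for fat synthesis, ranged from 97.4 to 517 CPM in block 1 (median 229), from 150.3 to 1125 in block 3 (median 314) and from 122 to 1060 in block 4 (median 376). The ranges of the 3 blocks overlapped for Acly, yet blocks 3 and 4 were higher in 11 of 12 treatment groups each, at 0.67 in block 3 (SE 0.15, adjusted p = 0.000285) and 0.69 in block 4 (SE 0.16, adjusted p = 0.000677). Malic enzyme (Me1) rose by 0.68 and 0.62, and the fatty acid synthase Fasn by 0.65 in block 3 and was at 0.48 in block 4 (adjusted p = 0.0635). Pnpla3, a lipid-droplet protein, was at 0.93 in block 3 (SE 0.27, adjusted p = 0.0053) and 0.56 in block 4 (SE 0.29, adjusted p = 0.129). The member that was lower was Srebf1, whose protein SREBP-1c drives the other genes of the list, at -0.52 in block 3 and, without passing, at -0.11 in block 4.

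Of 23 cholesterol synthesis genes tested, 11 were higher and 2 lower in block 3 (median 0.25) and 4 higher and 1 lower in block 4 (median 0.19), where the share higher was near the 17.5% of all genes. Pmvk, Fdps and Sc5d, enzymes of the pathway, rose by 0.60 and 0.47, 0.54 and 0.42 and 0.43 and 0.60, while Stard4, a sterol carrier, fell by 0.52 and 0.59. The counts of this list moved with the PT 80 ppm group. Without it, 6 were higher and 4 lower in block 3 and 3 higher and 2 lower in block 4.

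Of 22 genes of gluconeogenesis and amino acid breakdown, 5 were higher and 7 lower in block 3, and 2 and 5 in block 4. Sds, the serine dehydratase, ranged from 67.7 to 485 CPM in block 1 (median 114), from 45 to 198 in block 3 (median 72.8) and from 33 to 96 in block 4 (median 69.2). Block 1 was the high one, with 19 of 23 mice above the highest mouse of block 4, and the log2 fold change was -0.80 in block 3 (SE 0.13, adjusted p = 7.24e-07) and -0.97 in block 4 (SE 0.14, adjusted p = 2.74e-07). Ppargc1a, a coactivator of fasting genes, fell by 0.44 and 0.55, Oat was at 0.35 in block 3 (SE 0.09, adjusted p = 0.000779) and 0.14 in block 4 (SE 0.09, adjusted p = 0.254) and Asl at -0.25 in block 3 (SE 0.10, adjusted p = 0.0484) and -0.38 in block 4 (SE 0.11, adjusted p = 0.00758). The call of Asl in block 3 was lost in 12 of 24 alternatives and that in block 4 in 3, and without the PT 80 ppm group Asl was at -0.05 (adjusted p = 0.502) and -0.14 (adjusted p = 0.0682). Pck1 and G6pc1, the key enzymes of gluconeogenesis, did not pass, at -0.16 and -0.10 for Pck1 and 0.30 and 0.20 for G6pc1.

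Of 25 genes of fatty acid oxidation and PPARA targets, 4 were higher and 4 lower in block 3, near the shares over all genes, and 2 higher and 9 lower in block 4. Cpt1a, the gate of mitochondrial fat oxidation, ranged from 2.21 to 8.07 CPM in block 1 (median 5.68), from 1.94 to 4.94 in block 3 (median 3.31) and from 1.53 to 4.63 in block 4 (median 3.31). In block 1, 18 of 23 mice lay above every mouse of block 3 and 19 above every mouse of block 4, for a log2 fold change of -0.71 in block 3 (SE 0.09, adjusted p = 1.09e-08) and -0.77 in block 4 (SE 0.11, adjusted p = 4.49e-08). Ppara itself was at -0.36 and -0.41 and passed in both. Pdk4, which turns off pyruvate dehydrogenase in fasting, was higher, at 1.09 in block 3 (SE 0.24, adjusted p = 0.0002) and 0.67 in block 4 (SE 0.26, adjusted p = 0.041), although the second value did not pass in 12 of 24 alternatives. Angptl4, a lipase inhibitor, was at -0.23 in block 3 (SE 0.16, adjusted p = 0.254) and -0.64 in block 4 (SE 0.18, adjusted p = 0.00375), and Cyp4a10 at -0.20 in block 3 (SE 0.35, adjusted p = 0.696) and -1.38 in block 4 (SE 0.41, adjusted p = 0.00606), a gene that ranged from 0.245 to 891 CPM in block 1 (median 2.34), from 0.0915 to 167 in block 3 (median 3.38) and from 0.0942 to 348 in block 4 (median 1.01) and was highest in the PT 80 ppm mice of each block.

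Some acute phase and chemokine genes were higher in blocks 3 and 4, with wide spreads. Of 30 acute phase genes tested, 11 were higher and 1 lower in block 3 (median 0.31), against 19.3% and 19.5% of all genes. In block 4, 6 were higher and 4 lower (median 0.20), near the 17.5% and 17.6% of all genes. Saa1, serum amyloid A, ranged from 7.93 to 18020 CPM in block 1 (median 538), from 77.7 to 54210 in block 3 (median 1498) and from 89.2 to 27640 in block 4 (median 2719). The ranges overlapped nearly in full, and the log2 fold change was 2.22 in block 3 (SE 0.76, adjusted p = 0.0168) and 2.03 in block 4 (SE 0.77, adjusted p = 0.0336). Those calls did not pass in 4 and 7 of 24 alternatives, respectively. Orm1, an acid glycoprotein, was steadier, and ranged from 281 to 1607 CPM in block 1 (median 588), from 188 to 4361 in block 3 (median 912) and from 301 to 3515 in block 4 (median 1003). Its log2 fold change was 0.82 in block 3 (SE 0.21, adjusted p = 0.00125) and 0.76 in block 4 (SE 0.23, adjusted p = 0.00588), and it passed under all 24 alternatives. Orm2 was at 2.17 in block 3 (SE 0.76, adjusted p = 0.0182) and 2.04 in block 4 (SE 0.74, adjusted p = 0.0254) and did not pass in 3 and 5 alternatives. Saa1 and Saa2, and Orm1, Orm2 and Orm3, are near copies among which the counting could split reads, so their single values are uncertain.

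Cxcl1, a chemokine that draws neutrophils, ranged from 3.11 to 21.1 CPM in block 1 (median 9.25), from 7.3 to 168 in block 3 (median 24.9) and from 5.81 to 162 in block 4 (median 22.4). No mouse of block 1 was above 21.1 CPM while the highest of blocks 3 and 4 reached 168 and 162, and the log2 fold change was 1.79 in block 3 (SE 0.34, adjusted p = 1.9e-05) and 1.87 in block 4 (SE 0.36, adjusted p = 4.1e-05). Hamp (hepcidin), which the acute phase list also holds, went against the list: it ranged from 130.2 to 501 CPM in block 1 (median 272), from 0.394 to 279 in block 3 (median 191) and from 73.8 to 249 in block 4 (median 144). Hamp was high in block 1, at -0.54 in block 3 (SE 0.19, adjusted p = 0.02) and -0.88 in block 4 (SE 0.22, adjusted p = 0.000995), and the first value did not pass in 4 of 24 alternatives. Serpina3n, Serpina3m and Saa4, also of that list, passed as lower in block 4, at -0.52, -0.47 and -0.63.

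Of 35 interferon-stimulated genes tested, 16 were higher and 0 lower in block 3 (median 0.14), and 18 were higher and 1 lower in block 4 (median 0.21), against 19.3% and 17.5% higher over all genes. Oas1a, an antiviral enzyme that senses RNA, ranged from 0.327 to 5.9 CPM in block 1 (median 3.42), from 2.62 to 13.9 in block 3 (median 4.59) and from 3.42 to 10.7 in block 4 (median 5.04). It was low in block 1, with 12 of 23 mice below the lowest of block 4, at 0.63 in block 3 (SE 0.14, adjusted p = 0.000289) and 0.80 in block 4 (SE 0.16, adjusted p = 4.68e-05). Rsad2 (viperin), Ifi47 and the chemokine gene Cxcl10 rose by 0.58 and 0.60, 0.55 and 0.50 and 0.82 and 0.87. Cxcl9 was the member that was lower in block 4, at -0.58.

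Markers of immune cells moved with these genes in part. Of 15 leukocyte markers tested, 5 were higher and 0 lower in block 3 and 4 higher and 0 lower in block 4, against the same shares. Ighm, the antibody mu chain of B cells, ranged from 1.33 to 9.18 CPM in block 1 (median 4.2), from 2.18 to 26 in block 3 (median 8.66) and from 0.662 to 26.2 in block 4 (median 12), and rose by 1.05 in block 3 (SE 0.19, adjusted p = 1.4e-05) and 1.45 in block 4 (SE 0.21, adjusted p = 1.06e-07). S100a8 and Itgam, of neutrophils and other myeloid cells, were at 0.88 in block 3 (SE 0.25, adjusted p = 0.00375) and 0.50 in block 4 (SE 0.28, adjusted p = 0.169) and 0.53 in block 3 (SE 0.13, adjusted p = 0.000824) and 0.32 in block 4 (SE 0.15, adjusted p = 0.0817). Summed over the 26 leukocyte markers in the table, levels ran from 36 to 319.6 CPM in block 1 (median 214), from 155 to 349 in block 3 (median 219) and from 191 to 416 in block 4 (median 215), so the medians lay close together. These sums, and those of Kupffer cell markers below, were scaled by total counts alone. Of 12 Kupffer cell markers, the resident macrophages of liver, 4 were higher and 2 lower in block 3 and 6 higher and 1 lower in block 4. Adgre1 (F4/80) was at 0.42 in block 3 (SE 0.13, adjusted p = 0.00563) and 0.57 in block 4 (SE 0.14, adjusted p = 0.000686) and Clec4f, a lectin of Kupffer cells, at 0.20 in block 3 (SE 0.11, adjusted p = 0.165) and 0.48 in block 4 (SE 0.12, adjusted p = 0.00159). Summed Kupffer cell markers had medians of 278, 291 and 306 CPM in blocks 1, 3 and 4 and ran from 161 to 460.1, 195 to 430.3 and 256 to 542. No marker of either list was at 0 in all mice. In these bulk samples more cells of a type and more RNA per cell cannot be told apart, and the part of the markers in the acute phase and interferon values was not tested.

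**Figure D4:**
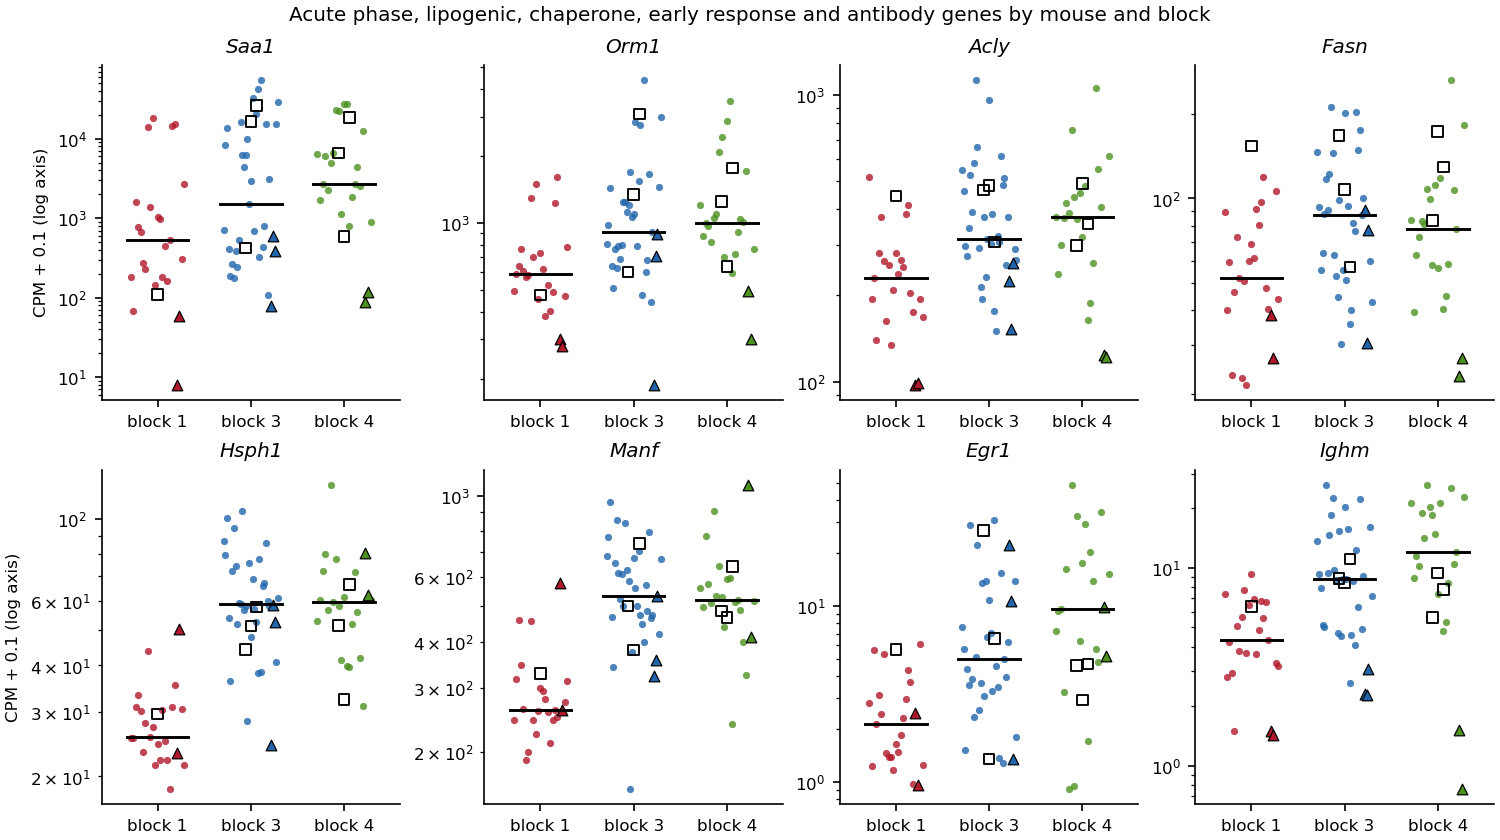
Levels of 8 further genes in each mouse by block, as CPM + 0.1 on a log axis, with symbols as in the plot of clock genes by mouse. Saa1 spreads over the whole axis in every block, whereas Hsph1 and Manf sit higher in blocks 3 and 4, with Hsph1 medians of 58.8 and 59.2 CPM against 25.4 in block 1.

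Protein folding genes were mostly higher in blocks 3 and 4. Of 15 heat shock genes tested, 11 were higher and 2 lower in block 3 (median 0.34), and 8 higher and 2 lower in block 4 (median 0.30). Shares over all genes tested were 19.3% higher and 19.5% lower in block 3, and 17.5% and 17.6% in block 4. Hsph1, a nucleotide exchange factor of HSP70, ranged from 18.4 to 50 CPM in block 1 (median 25.4), from 24.3 to 105 in block 3 (median 58.8) and from 31.1 to 124 in block 4 (median 59.2). In block 1, 19 of 23 mice lay below the lowest mouse of block 4, and the log2 fold change of 1.11 in block 3 (SE 0.12, adjusted p = 1.24e-10) and 1.08 in block 4 (SE 0.13, adjusted p = 3.25e-09) held in 12 of 12 treatment groups in both comparisons. Chordc1, an HSP90 cochaperone, rose by 0.69 in block 3 (SE 0.07, adjusted p = 7.24e-12) and 0.59 in block 4 (SE 0.08, adjusted p = 1.17e-08). Bag3, a partner of HSP70, rose by 0.77 and 0.84 and Dnajb1 by 0.46 and 0.54.

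Of 24 genes of the unfolded protein response of the endoplasmic reticulum, 17 were higher and 1 lower in block 3 (median 0.29), and 16 higher and 1 lower in block 4 (median 0.33). Among all genes tested, 19.3% were higher and 19.5% lower in block 3, and 17.5% and 17.6% in block 4. Syvn1, a ubiquitin ligase of this compartment, ranged from 51.5 to 111 CPM in block 1 (median 65.7), from 50.7 to 250.1 in block 3 (median 126) and from 83.2 to 243 in block 4 (median 122). In block 1, 20 of 23 mice lay below the lowest of block 4, at 0.92 in block 3 (SE 0.12, adjusted p = 3.06e-09) and 0.91 in block 4 (SE 0.13, adjusted p = 3.98e-08). Manf, a secreted protein of the stress response, ranged from 189.8 to 579 CPM in block 1 (median 261), from 159 to 961 in block 3 (median 532) and from 239 to 1071 in block 4 (median 518), and rose by 0.90 in block 3 (SE 0.13, adjusted p = 4.48e-08) and 0.90 in block 4 (SE 0.14, adjusted p = 3.84e-07). Creld2 rose by 0.99 and 1.01. Trib3, a target of the ATF4 branch, was the member that fell, by 0.84 and 0.88, whereas Atf5, another factor of that branch, rose by 0.47 in block 3 (SE 0.04, adjusted p = 2.76e-13) and 0.53 in block 4 (SE 0.05, adjusted p = 5.64e-13).

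**Figure D5:**
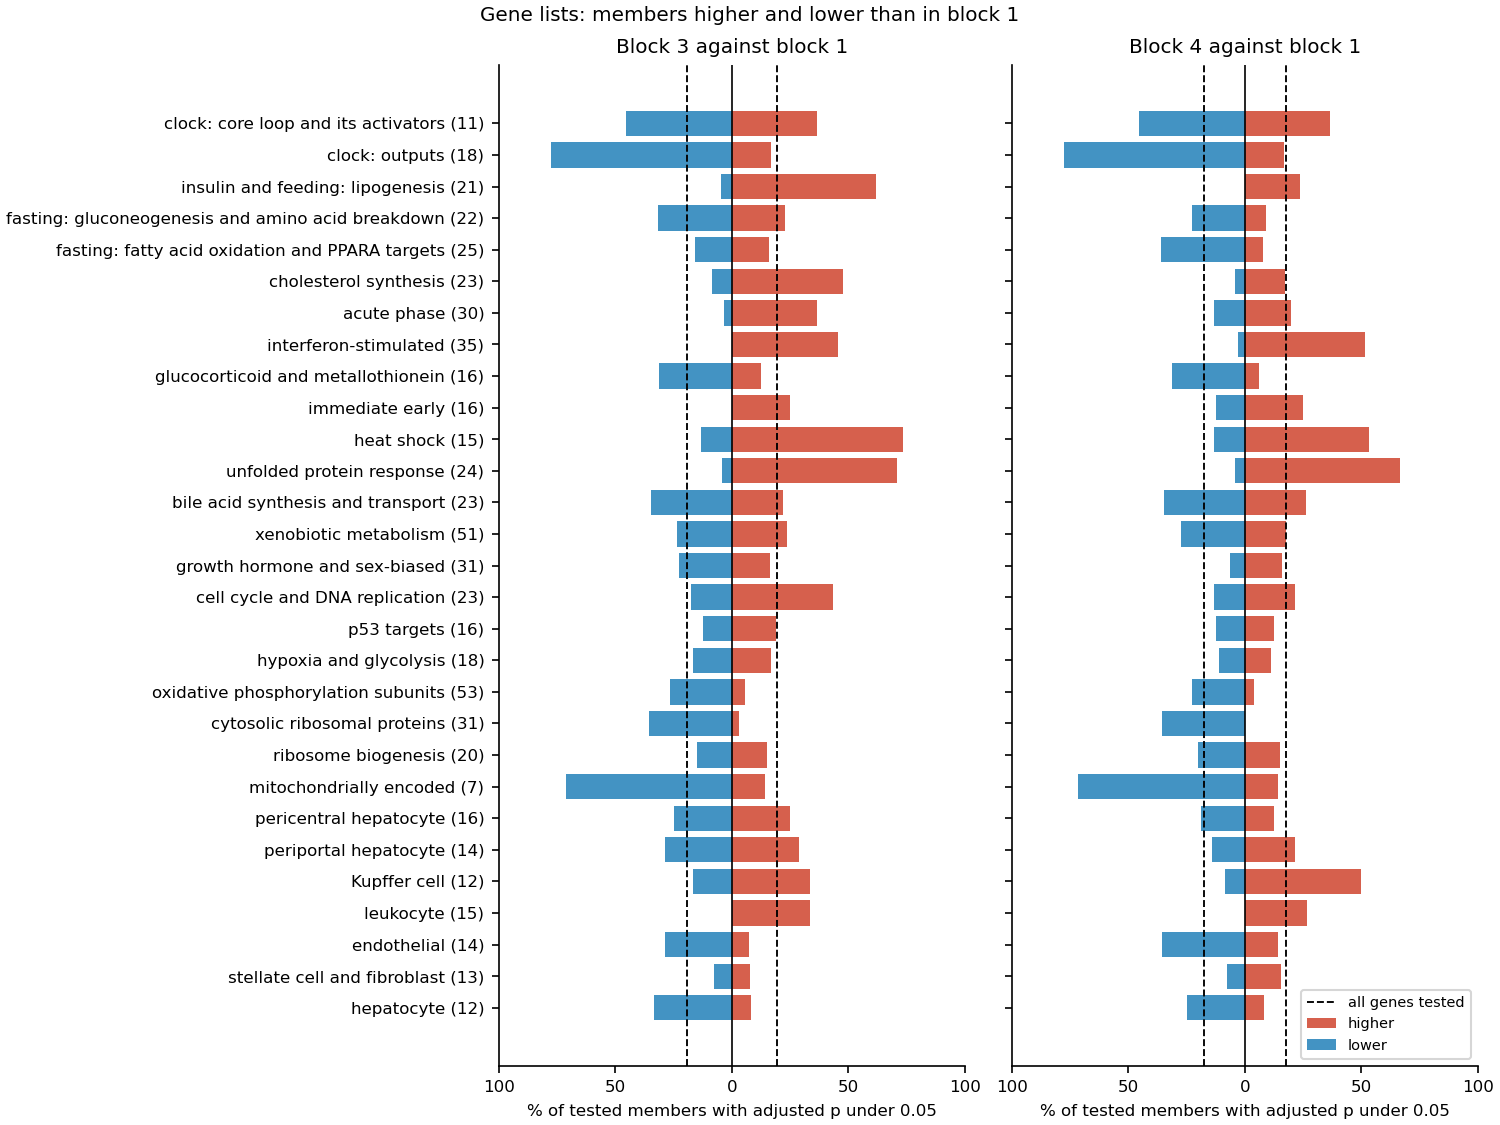
Share of the tested members of each gene list that were higher (right of 0) or lower (left of 0) than in block 1 at an adjusted p under 0.05, in block 3 (left panel) and block 4 (right panel), with the number tested in brackets; dashed lines mark the shares over all 10362 genes, 19.3% and 19.5% in block 3 and 17.5% and 17.6% in block 4. Clock outputs extend farthest to the left among lists of over 10 genes, and heat shock and unfolded protein response genes to the right.

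Transcripts of the mitochondrial genome were lower in blocks 3 and 4. Of 7 tested, 5 were lower and 1 higher in each block (median -0.35 and -0.39). The subunit gene mt-Nd2 of complex I ranged from 180.2 to 288 CPM in block 1 (median 241), from 112 to 192 in block 3 (median 155) and from 64.7 to 188 in block 4 (median 162). In block 1, 22 of 23 mice lay above the highest mouse of block 3, and also above that of block 4, with a log2 fold change of -0.63 in block 3 (SE 0.06, adjusted p = 2.37e-13) and -0.64 in block 4 (SE 0.07, adjusted p = 1.48e-11). The gene mt-Cytb was the one that was higher, at 0.36 and 0.25. Of 53 nuclear genes of oxidative phosphorylation, 3 were higher and 14 lower in block 3 and 2 higher and 12 lower in block 4, with medians of -0.05 and -0.04. All genes tested gave 19.3% higher and 19.5% lower in block 3, and 17.5% and 17.6% in block 4. Cox4i1, a subunit of cytochrome c oxidase, fell by 0.41 and 0.43. Of 31 genes of cytosolic ribosomal proteins, 1 was higher and 11 lower in block 3 and 0 and 11 in block 4 (medians -0.09 and -0.11), with Rpl28 at -0.31 in block 3 (SE 0.04, adjusted p = 9.73e-08) and -0.34 in block 4 (SE 0.05, adjusted p = 1.43e-07). Ribosomal protein genes have many near copies, so single values are uncertain.

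Bile acid and drug metabolism genes went both ways. Of 23 genes of bile acids, 5 were higher and 8 lower in block 3, against 19.3% and 19.5% of all genes, and 6 and 8 in block 4, against 17.5% and 17.6%. Abcg8, which with Abcg5 moves sterols into bile, ranged from 30.2 to 92.7 CPM in block 1 (median 48), from 15.9 to 49.6 in block 3 (median 29.1) and from 19.9 to 50.7 in block 4 (median 31.6). Block 1 was high and 9 of its mice lay above all of block 3, at -0.63 in block 3 (SE 0.07, adjusted p = 1.68e-10) and -0.56 in block 4 (SE 0.08, adjusted p = 1.18e-07). Slco1a4, an uptake carrier, fell by 0.77 and 0.99 and Klb, the coreceptor through which an intestinal FGF represses Cyp7a1, by 0.55 and 0.60. Nr0b2 (SHP), a repressor of Cyp7a1, was higher, at 0.41 and 0.57, and Cyp8b1, which makes cholic acid, at 0.43 and 0.44. Of 51 genes of xenobiotic metabolism, 12 were higher and 12 lower in block 3 and 9 higher and 14 lower in block 4. Cyp2a5, the coumarin hydroxylase, ranged from 139 to 860.2 CPM in block 1 (median 291), from 81.4 to 389 in block 3 (median 147) and from 58.7 to 314 in block 4 (median 117), and its log2 fold change was -0.92 in block 3 (SE 0.14, adjusted p = 4.42e-07) and -1.26 in block 4 (SE 0.16, adjusted p = 7.72e-09). Cyp2a4, a near copy that can share its reads, was at -0.89 and -1.28. Fmo2 ranged from 0.922 to 184 CPM in block 1 (median 1.48), from 0.429 to 5.49 in block 3 (median 1.27) and from 0.34 to 3.39 in block 4 (median 1.07), where the highest values of block 1, 46.6 and 184 CPM, were those of the PT 80 ppm mice, and its log2 fold change of -1.18 and -1.49 ran from -2.95 to -0.36 in block 3 and from -3.27 to -0.63 in block 4 over the alternatives tried.

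Glucocorticoid-responsive and metallothionein genes were lower more often than higher, with 2 higher and 5 lower of 16 in block 3 and 1 and 5 in block 4. This split turned without the PT 80 ppm group, to 6 higher and 3 lower in block 3 and 4 higher and 3 lower in block 4. In the main fit, 19.3% of all genes were higher and 19.5% lower in block 3, and 17.5% and 17.6% in block 4. Mt1, a metal-binding protein, was at -0.54 in block 3 (SE 0.22, adjusted p = 0.0421) and -1.25 in block 4 (SE 0.26, adjusted p = 8.94e-05), and the first value did not pass in 13 of 24 alternatives. Mt2 ranged from 2.79 to 655 CPM in block 1 (median 14), from 1.18 to 509 in block 3 (median 11.3) and from 1.15 to 169 in block 4 (median 3.64), and was at 0.01 in block 3 (SE 0.73, adjusted p = 0.992) and -2.15 in block 4 (SE 0.76, adjusted p = 0.0217), where the second value did not pass in 4 of 24 alternatives. Klf9, which glucocorticoids and the clock both drive, was at -0.61 and -0.65 and passed in both. Cdkn1a, the cell cycle inhibitor p21, was at 1.28 in block 3 (SE 0.42, adjusted p = 0.0118) and 0.54 in block 4 (SE 0.47, adjusted p = 0.386), and in block 3 its value ran from 0.45 to 2.63 over the alternatives and did not pass in 2.

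Of 16 immediate early genes, 4 were higher and 0 lower in block 3 and 4 higher and 2 lower in block 4. Shares over all genes tested, for this list and the cell cycle list below, were 19.3% and 19.5% in block 3 and 17.5% and 17.6% in block 4. Egr1, an early growth response factor, ranged from 0.862 to 5.99 CPM in block 1 (median 2.04), from 1.18 to 30.6 in block 3 (median 4.94) and from 0.816 to 49 in block 4 (median 9.58). No mouse of block 1 was above 5.99 CPM while blocks 3 and 4 reached 30.6 and 49, and the log2 fold change was 1.75 in block 3 (SE 0.39, adjusted p = 0.000267) and 2.49 in block 4 (SE 0.42, adjusted p = 2.84e-06). Jund rose by 0.36 and 0.31 and Dusp6 by 0.39 and 0.34, of which the second value did not pass in 3 of 24 alternatives. Of 23 cell cycle genes, 10 were higher and 4 lower in block 3 and 5 and 3 in block 4. Cdc20 rose by 0.82 and 1.03, whereas Tk1, the thymidine kinase of S phase, fell by 0.83 and 0.96 and Cdt1, which licenses replication origins, by 0.71 and 0.62. Pfkfb3, an activator of glycolysis in the hypoxia list, fell by 0.97 and 0.94 and P4ha1, a collagen hydroxylase of the same list, rose by 0.57 and 0.73.

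Markers of the zones of the lobule and of other cells went both ways. Of 16 pericentral hepatocyte markers, 4 were higher and 4 lower in block 3 and 2 and 3 in block 4, and of 14 periportal ones 4 and 4, and 3 and 2. Over all genes tested, 19.3% were higher and 19.5% lower in block 3, and 17.5% and 17.6% in block 4. Cyp2e1, the ethanol oxidase of the pericentral zone, ranged from 9669 to 25120 CPM in block 1 (median 12520), from 5188 to 20530 in block 3 (median 9489) and from 6388 to 20430 in block 4 (median 8497), and fell by 0.44 and 0.48, while Slc1a4, an amino acid carrier of the pericentral list, rose by 0.75 and 1.10. Of 14 endothelial markers 1 was higher and 4 lower in block 3 and 2 and 5 in block 4, with Pecam1 (CD31) at -0.40 in block 3 (SE 0.09, adjusted p = 0.000145) and -0.44 in block 4 (SE 0.10, adjusted p = 0.000211). Stellate cell markers gave 1 and 1 of 13 in block 3 and 2 and 1 in block 4. Of the 3 cholangiocyte, 4 erythroid and 1 pancreas or gut markers that were tested, 0 passed in either block, and of 3 adipose markers 1 was higher in block 4.

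The smallest p-values of all genes were not those of the clock alone. Psen2, a subunit of gamma-secretase, ranged from 166 to 544 CPM in block 1 (median 359.6), from 415 to 814 in block 3 (median 594) and from 299.7 to 747 in block 4 (median 621). It was low in block 1, with 17 mice below the lowest of block 3, at 0.74 in block 3 (SE 0.06, adjusted p = 8.39e-16) and 0.72 in block 4 (SE 0.07, adjusted p = 2.8e-13). Chka, the choline kinase that begins phosphatidylcholine synthesis, ranged from 17.4 to 66 CPM in block 1 (median 29), from 36 to 144 in block 3 (median 89.3) and from 21.6 to 156 in block 4 (median 94.5). Chka too was low in block 1, with 19 mice below the lowest of block 3, at 1.46 in block 3 (SE 0.12, adjusted p = 1.57e-14) and 1.55 in block 4 (SE 0.13, adjusted p = 1.57e-13). S100a10, an annexin partner, and Tfpi2, a protease inhibitor, rose by 1.04 and 0.95 and 0.75 and 0.68, and Ldb1 and Jade1, both cofactors of transcription, fell by 0.50 and 0.50 and 0.79 and 0.76. Each of these genes had the same direction in all 12 treatment groups in both comparisons.

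Among the largest folds outside the clock, Tubb2a, a beta-tubulin, ranged from 10.6 to 43.1 CPM in block 1 (median 23), from 23.2 to 193 in block 3 (median 83.6) and from 22.2 to 153 in block 4 (median 91.2). In block 1, 12 of 23 mice lay below the lowest of block 3, at 1.91 in block 3 (SE 0.17, adjusted p = 8.64e-14) and 1.93 in block 4 (SE 0.18, adjusted p = 7.35e-13). Grk5, a kinase of G protein-coupled receptors, was at 1.49 and 1.95, Klhdc7b at 1.77 and 1.59 and Moxd1 at 1.31 and 2.52. Moxd1 had levels from 0.28 to 193 CPM in block 1 (median 20.1), from 0.327 to 232 in block 3 (median 58.3) and from 2.89 to 268 in block 4 (median 165), with PT 80 ppm mice among the lowest of every block. Sap18, a subunit of the SIN3 corepressor complex that has a near copy in the mouse genome, fell by 1.34 and 1.87.

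Between blocks 4 and 3 the 9 genes that passed each differed by less than 2-fold. F2r, the thrombin receptor, ranged from 7.29 to 21.5 CPM in block 1 (median 15.7), from 8.38 to 21.1 in block 3 (median 13.7) and from 10.5 to 43.8 in block 4 (median 19.4). Block 4 was higher than block 3 by 0.45 (SE 0.08, adjusted p = 0.00351), in 11 of 12 treatment groups, with overlapping ranges. Cd4, of helper T cells, was higher by 0.67 (SE 0.14, adjusted p = 0.0448), in 12 of 12 groups. Afp (alpha-fetoprotein), Mep1b (meprin beta) and Ces4a, a carboxylesterase, were higher by 0.47 (SE 0.10, adjusted p = 0.0303), 0.86 (SE 0.20, adjusted p = 0.0478) and 0.97 (SE 0.22, adjusted p = 0.0478). Smoc2, a calcium-binding matrix protein, was the other one and is named after its value was seen. Slc39a14, a zinc and iron carrier, ranged from 167 to 407 CPM in block 1 (median 187), from 119.6 to 399.8 in block 3 (median 205) and from 115 to 259.9 in block 4 (median 144). Its difference, block 4 against block 3, was -0.40 (SE 0.07, adjusted p = 0.00486), and Hspb8, a small heat shock protein, and Tmem38b, an ion channel, were at -0.32 (SE 0.07, adjusted p = 0.0478) and -0.18 (SE 0.04, adjusted p = 0.0478). Of 24 alternatives, F2r did not pass in 1, Slc39a14 in 4, Afp in 8, Cd4 in 13, Ces4a in 14, Mep1b in 15, Hspb8 in 18 and Tmem38b in 19. Of the 8 genes other than Smoc2, 0 passed in edgeR with 1 summed library for each treatment group and block. No clock gene passed between blocks 4 and 3, and the smallest adjusted p was 0.779, of Rgs16 and Por.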

How the data were processed

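Liver RNA of 84 mice was measured by TempO-Seq. The authors trimmed reads, aligned them to the mouse genome mm39 with STAR, assigned them to Ensembl transcripts with the E/M method of Partek Flow and deposited estimated counts for 17695 genes, of which 18.7% of values were not whole. A second deposited table of log2 values, adjusted by the authors for block and RNA isolator, was not used, since that step removes the difference described here. Samples were grouped by the block and isolator labels, and no 2 libraries were identical.

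Counts were rounded and genes with a median above 8 over the 77 EA mice were kept. edgeR 4.0.16 (R 4.3.3, quasi-likelihood, robust, TMM) was fitted with block and treatment group, and p-values were adjusted by Benjamini-Hochberg over 10362 genes. CPM values of single genes use TMM factors over all 84 mice, and sums of markers use total counts alone. Permutation tests were two-sided with 100000 resamples. On simulated data of 10362 genes edgeR recovered 197 of 200 genes changed by 1 on the log2 scale between blocks 3 and 1, with 13 false calls among the unchanged genes. Recovery of smaller changes, which most differences here were, was not tested. Alternatives were DESeq2 1.42.0, limma 3.58.1 on log2(CPM + 1), other scaling, filters, mice and covariates.

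The blocks compared, the 33 gene lists (798 genes, written from general knowledge) and the tests were chosen with earlier results of these data known. Named genes were all members of the 2 clock lists, the 10 genes of smallest p for block, the 5 highest and 5 lowest log2 fold changes of each pair of blocks among genes that passed with 1 direction in at least 10 of 12 treatment groups, and up to 4 members of each other list with the largest log2 fold changes among those that differed between blocks. The other members of the lists given with values were picked as examples after their values were seen. Some genes that the rule names are not reported here, though they stay in the counts. Mice of 1 cage may not be independent, and p-values measure the spread between mice.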

Additional observations from a re-analysis of the deposited data

How the results depend on the processing

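No alternative turned the direction of a named gene that had passed. The near-even split of higher and lower genes did turn. Against 2002 higher and 2020 lower in block 3, it was 1957 and 1915 without the control group, 1924 and 1856 without MT 100 ppm, 1820 and 1815 without MT 10 ppm, 1773 and 1717 without PT 20 ppm and 2024 and 1996 without the PT 80 ppm, FT 10 ppm and MT 100 ppm groups. Against 1816 and 1819 in block 4, it was 1758 and 1731 without the control group, 1980 and 1939 without FT 10 ppm, 1765 and 1638 without MT 100 ppm, 1617 and 1553 without PT 20 ppm, 1938 and 1889 without PT 80 ppm, 2018 and 1928 without those 3 groups and 1903 and 1879 without the 2 mice of the PT 80 ppm group. Between blocks 4 and 3, 1 gene was higher and 2 lower without MT 100 ppm. Of 129 named genes that passed between blocks 3 and 1, and of as many between blocks 4 and 1, each alternative lost from 0 to 13. Leaving out each treatment group in turn gave 3392 to 4216 genes that differed between blocks. Between blocks 3 and 1 it gave 1746 to 2105 higher, 1717 to 2108 lower and 63 to 80 at least 2-fold, and between blocks 4 and 1 it gave 1572 to 1980, 1553 to 1939 and 78 to 92. With limma, 1110 genes were higher in block 3 than in block 1, 36 differed at least 2-fold, and 48 did so between blocks 4 and 1. With total counts alone, 1112 were higher and 3130 lower in block 3. With no filter, 320 and 300 genes differed at least 2-fold from block 1. The fewer calls between blocks 4 and 3 varied most. Higher genes numbered 2 with no filter, without the mouse of lowest total or with no treatment covariate, 3 with all 84 mice, 0 with 1 summed library for each treatment group and block, and 1 to 13 leaving out each group. Lower genes numbered 5 with DESeq2, 1 with limma, total counts alone, no filter, without the mouse of lowest total, without the PT 80 ppm, FT 10 ppm and MT 100 ppm groups or without the 2 mice of the PT 80 ppm group, 0 with summed libraries or no covariate, and 0 to 9 leaving out each group. At least 2-fold were 1 with DESeq2 and 0 to 2 leaving out each group. In the EPA mice 10 genes passed with no filter. The cause of these changes was not tested. No paired analysis was possible because the labels number animals and give no replicate number that pairs mice across blocks.

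Depth was 6950381 counts or more in every mouse, so genes at a few counts, such as Per1 and Per2, limit what can be said. Blocks differ in ways that the sources used here do not give, and block cannot be told apart from any of them.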

Other observations

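Other lists went both ways. Their counts stand against 19.3% higher and 19.5% lower of all genes in block 3, and 17.5% and 17.6% in block 4. Of 31 growth hormone and sex-biased genes, 5 were higher and 7 lower in block 3 than in block 1, and 5 and 2 in block 4. Mup7, a major urinary protein that shares reads with near copies, had a log2 fold change of 1.48 in block 3 (SE 0.34, adjusted p = 0.000425) and 0.57 in block 4 (SE 0.40, adjusted p = 0.272) in edgeR, and Cyp17a1, a steroid hydroxylase, one of -0.31 in block 3 (SE 0.20, adjusted p = 0.225) and -0.94 in block 4 (SE 0.23, adjusted p = 0.00107). Of 16 p53 targets, 3 were higher and 2 lower in block 3 and 2 and 2 in block 4, with the death receptor gene Fas at 0.50 and 0.34. Of 18 hypoxia and glycolysis genes the counts were 3 and 3, and 2 and 2. Of 20 ribosome biogenesis genes they were 3 and 3, and 3 and 4, with nucleolin (Ncl) at -0.36 and -0.38. Of 12 hepatocyte markers, 1 was higher and 4 lower in block 3 and 1 and 3 in block 4, and Hnf4a, the hepatocyte factor, was at -0.14 and -0.27.

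The mice isolated at the EPA, which the fits on EA mice did not use, also gave values for genes outside the clock. Tubb2a was at 42.1 CPM in the mouse of block 1, 58.2 to 112 in the 3 of block 3 and 107 to 161 in the 3 of block 4, and Hsph1 at 29.4 CPM, 44.1 to 57.5 and 32.2 to 66.1. Saa1 was at 111 CPM in block 1, 421 to 26230 in block 3 and 587 to 18370 in block 4. In each of these 3 genes the mouse of block 1 lay outside the range of the other 6. Alas1 was at 18.3 CPM in block 1 and at 28.6 to 278 and 35.9 to 64.1 in blocks 3 and 4, the opposite of its order in the EA mice. Me1 was at 150.8 CPM in block 1 and at 42.3 to 103 and 59.9 to 145.5 in blocks 3 and 4, also opposite to the EA mice. For Acly, Fasn, Pnpla3 and Egr1 the mouse of block 1 lay within the range of the other 6.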
